A study of Homo sapiens with 16 samples.

Results

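The genes described here are PAX2, PAX8, SIX2, EYA1, SALL1, WT1, LHX1 and GATA3, 8 transcriptional regulators of kidney development. Their members in the count table were the intervals that overlapped one of these genes or lay within 20 kb of one of its GENCODE release 44 transcript starts. This gave 49 of the 74404 intervals in the table: 10 each at EYA1 and GATA3, 7 at PAX8, 6 each at PAX2 and LHX1, 4 at WT1, and 3 each at SIX2 and SALL1. Of the 49, 36 overlapped a member gene and 19 lay within 1 kb of a member start, and these 19 are called promoter intervals. The measurements are CUT&Tag, in which an antibody on permeabilised nuclei directs a transposase to cut and tag the DNA beside its target, so that a count is the number of sequenced fragments in an interval.

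All libraries came from HEK293, an established line from human embryonic kidney, with the genotype eGFP-YAP, which every group shared. The 4 targets were CTCF, a DNA-binding protein that anchors chromatin loops, RAD21, a cohesin subunit, YAP1, read by an antibody to the GFP tag, and H3K27ac, a histone mark of active promoters and enhancers. For each target there were 2 vehicle libraries and 2 libraries from cells given 200 mM sorbitol for 1 h, a hyperosmotic stress, so 16 libraries formed 8 groups. The deposited column names put vehicle at the start of the time course, so time in culture and sorbitol cannot be told apart. The labels do not say whether the 2 libraries of a group came from separate cultures, and p-values therefore measure only the spread between these libraries, which may be technical.

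The nephron, the filtering unit of the kidney, forms when the ureteric bud, an epithelial outgrowth, meets the metanephric mesenchyme. SIX2, EYA1, SALL1 and WT1 act in that mesenchyme, where SIX2 keeps nephron progenitors in a self-renewing state and EYA1 is a cofactor of SIX2 and its relatives. PAX2 and PAX8, paired-domain factors, act in the early kidney epithelium of both compartments, GATA3 in the nephric duct and ureteric bud, and LHX1, a LIM homeodomain factor, in the duct and the first epithelial vesicles. WT1 is later retained in podocytes, the cells of the glomerular filter.

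The 5 sequences below are shown because each lies in a member interval where CTCF fell after sorbitol. They are the matches to the CTCF consensus with at most 1 mismatch on either strand, and they were found in 5 of the 49 member intervals. Such a match was present in 10.2% of the member intervals and in 18.4% of all intervals in the table. Capitals mark the 14-base core, and each line gives 30 bases of hg38 in the orientation of the match.
PAX2, upstream of the gene, chr10:100729634-100729663, minus strand: acccagcgCCAGCGGAGGGCGCatttcctg
PAX2, upstream intron, chr10:100743755-100743784, minus strand: tcttgaggCCTGCAGATGGCGCtcccgggt
PAX2, promoter interval, chr10:100745107-100745136, plus strand: ggcactggCCAGTGGATGGCAGggctgggc
PAX2, downstream intron, chr10:100817663-100817692, minus strand: tccaggttCCAGCAGAGGGGGCtgtgcctc
WT1, beyond the 3′ end of the gene, chr11:32374390-32374419, plus strand: aagctttgTCAGTAGAGGGCGCtggagaga

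Promoter sequence is shown for 3 genes whose promoter intervals moved in CTCF, PAX2 and WT1 downward and SIX2 upward. RefSeq promoters of build GRCh38.p14 were matched for 5 of the 8 members. EYA1, SALL1 and LHX1 had no entry. The stretches end at the transcript start, and that of WT1 also lies in exons of the antisense transcript WT1-AS. The motifs searched on both strands were GGAATG, the core bound by the TEAD partners of YAP1, found in 11.9% of the 35116 RefSeq promoters over the 250 bases before the start, GCGGGGGCG, a site shared by EGR and WT1 proteins, in 4.72%, and CCAAT, in 32.0%. The WT1 stretch was shortened to 225 bases to leave out exon sequence of the gene, and over windows of that length the shares were 10.7%, 4.54% and 30.1%. The 1 match in the 3 stretches was a CCAAT at SIX2, in capitals, so no motif overlapped another. That the other letters were not found says only that they are not in these windows.
PAX2, chr10:100745332-100745581, plus strand: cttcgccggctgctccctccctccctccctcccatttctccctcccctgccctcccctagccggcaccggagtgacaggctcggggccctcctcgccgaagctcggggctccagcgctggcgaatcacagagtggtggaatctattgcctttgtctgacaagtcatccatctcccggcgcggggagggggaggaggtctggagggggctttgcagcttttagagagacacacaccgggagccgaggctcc
WT1, chr11:32435565-32435789, minus strand: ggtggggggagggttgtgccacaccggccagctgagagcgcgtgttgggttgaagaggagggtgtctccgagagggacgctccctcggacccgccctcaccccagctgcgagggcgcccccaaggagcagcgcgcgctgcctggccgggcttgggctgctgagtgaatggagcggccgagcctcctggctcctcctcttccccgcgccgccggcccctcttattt
SIX2, chr2:45009453-45009702, minus strand: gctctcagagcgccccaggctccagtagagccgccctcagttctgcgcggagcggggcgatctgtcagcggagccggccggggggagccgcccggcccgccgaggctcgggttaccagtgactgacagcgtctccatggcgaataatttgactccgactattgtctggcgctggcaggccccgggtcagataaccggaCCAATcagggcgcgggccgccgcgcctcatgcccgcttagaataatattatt

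The 3 stretches were GC-rich. GC content was 66% at PAX2, 71.1% at WT1 and 65.6% at SIX2, beside a median of 58% over all RefSeq promoters. They held 15, 19 and 26 CpG dinucleotides, beside a median of 11 over 250 bases and of 10 over 225 bases, the length of the WT1 stretch. The member intervals as a whole had a median GC content of 60%, against 54.2% over all intervals, and a median width of 491 bp against 422 bp. The 19 promoter intervals of the members had a median GC content of 67.9%, against 62.7% for the 20481 intervals within 1 kb of any protein-coding start.

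Library totals ran from 1187939 counts in a RAD21 vehicle library to 8842656 in an H3K27ac sorbitol library. Mitochondrial intervals took 15.7% and 19.9% of counts in the CTCF vehicle libraries and 32.8% and 33.9% after sorbitol, 36.5% and 38.1% against 55.4% and 57.8% for YAP1, 34.3% and 38.5% against 44.8% and 46.0% for RAD21, and between 1.95% and 2.08% in the H3K27ac libraries. Levels below are counts per 1000000 (CPM) on library sizes scaled by TMM, a trimmed-mean scaling over the tested intervals, and changes are log2 ratios of sorbitol to vehicle on that scale. All directions are therefore relative to the bulk of the intervals. With scaling to total counts the median change over all intervals went from -0.06 to -1.04 for CTCF, from -0.01 to -0.60 for RAD21, from -0.04 to -1.46 for YAP1 and from 0.02 to 0.17 for H3K27ac. The part of the mitochondrial share in these shifts was not tested.

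The cell type named in the labels was compared with marker lists through vehicle H3K27ac, taking for each gene the interval with the highest CPM per kb and its percentile among all intervals. Genes active in every cell (ACTB, GAPDH and EEF1A1) lay between percentiles 94.5 and 99.5. Among 35 other kidney transcription factors, 32 had an interval, with a median percentile of 90.6, and among 28 kidney signalling genes the median was 87.2. The 14 genes of differentiated kidney cells had a median of 65.9, with 2 of them, UMOD and CALB1, without an interval. Medians were 83.8 for epithelial genes, 60.9 for fibroblast, 46.5 for blood, 41.8 for neural and 39.5 for endothelial genes. For the 8 members the median was 84.5, from 62 at PAX8 to 98.3 at SALL1.

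In vehicle, the promoters of GATA3 and SALL1 carried the most H3K27ac among the members and PAX8 the least. For each gene the promoter interval with the highest mean CPM over the 4 H3K27ac libraries was taken, without regard to width. Levels are CPM per kb of interval, with the percentile among the 20481 protein-coding promoter intervals (median 28.5, quartiles 12.7 and 46.2). GATA3 had 64.6 and 69.5 (67.1 ± 3.43, SD, n = 2, percentile 91.3) and SALL1, a zinc-finger repressor, had 67.7 and 57.6 (62.7 ± 7.14, percentile 89.0). The libraries of these 2 genes overlapped. Another SALL1 promoter interval was higher per kb. There, chr16:51152191-51152936 had a vehicle mean of 57.7 CPM over 746 bp, against 83.1 over 1327 bp in the interval taken. By the best interval per kb, SALL1 was above GATA3 (percentiles 98.3 and 97.1 of all intervals). SIX2 had 42.7 and 38.8 (40.8 ± 2.72, percentile 68.1), above the median promoter.

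**Figure D1:**
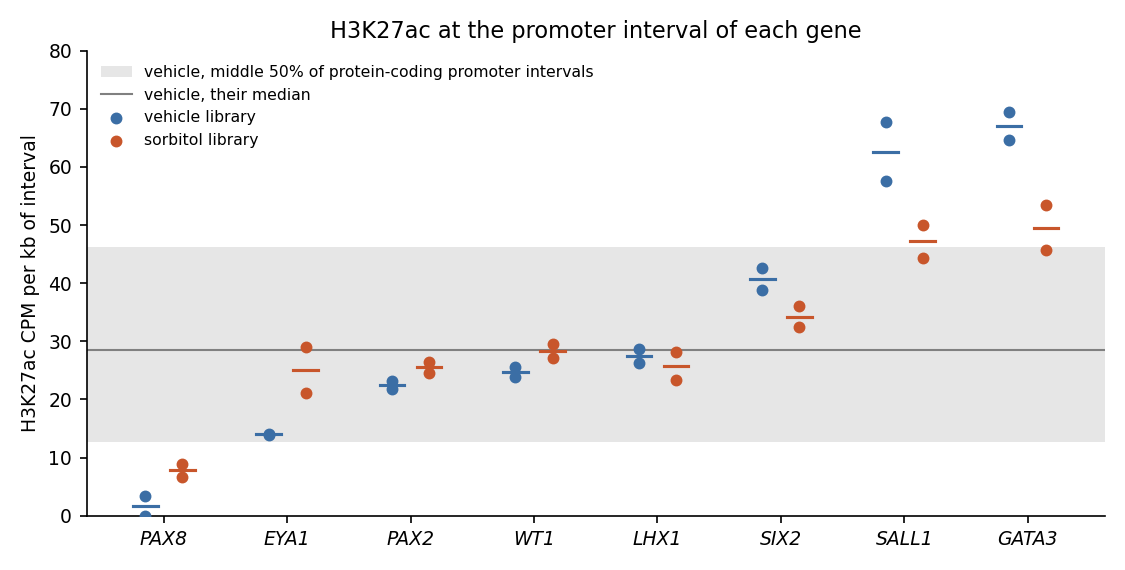
H3K27ac at the promoter interval of each member gene with the highest mean CPM, in CPM per kb of interval, with 1 point per library and a bar at the mean of 2 libraries (blue vehicle, orange sorbitol). The grey band and line are the interquartile range and the median of the 20481 protein-coding promoter intervals in vehicle, and the means of GATA3 and SALL1 lie above the band and those of PAX8 below it in both groups.

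LHX1, at 26.3 and 28.6 (27.5 ± 1.63), WT1, at 23.8 and 25.6 (24.7 ± 1.24), and PAX2, at 23.1 and 21.7 (22.4 ± 0.983), lay somewhat below the median promoter, at percentiles 48.6, 44.3 and 40.6. Their libraries did not overlap from one gene to the next, but the steps between them were small. The EYA1 promoter interval taken here was lower, with 14 in each vehicle library and percentile 27.4. PAX8 stood apart: no interval in the table lay within 1 kb of its canonical start, and its one promoter interval, at the start of a shorter transcript at chr2:113236296-113236535, held 5 and 0 counts (3.32 and 0 CPM per kb, percentile 2.36).

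At the same promoter intervals CTCF was above the median promoter at PAX2 and WT1 and below it at the other 6 genes. PAX2, whose interval holds the consensus shown above, had 11.0 and 11.1 CPM per kb (percentile 75.5 of protein-coding promoters). WT1 had 9.38 and 5.38 CTCF CPM per kb (percentile 62.2), and the other 6 members were between percentiles 9.82 (PAX8) and 36.3 (EYA1). Among these intervals YAP1 was highest at SIX2, with 6.89 and 6.01 CPM per kb (percentile 56.1), and lowest at PAX8, with 2.56 and 0. RAD21 was highest at SIX2 too, with 12.4 and 6.92 CPM per kb (percentile 71.4), and its 2 libraries there were well apart.

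The strongest CTCF intervals of the members were not always at promoters. For each gene the interval with the highest mean CPM over the 4 CTCF libraries was taken, without regard to width. Of these, the highest per kb in vehicle were an interval at chr2:113203830-113204385 with 54.0 ± 0.514 CPM per kb (percentile 98.3 of all intervals), assigned to PAX8 but inside the neighbouring gene PSD4, and, for PAX2, the intron interval at chr10:100743613-100744234 with 37.5 ± 0.858 (percentile 95.5). GATA3 followed with 22.8 ± 0.328 at chr10:8053313-8053857 (percentile 88.0). The intervals taken for the other 5 genes lay between 3.38 (SIX2) and 7.56 (SALL1) CPM per kb, that is, between percentiles 35.3 and 58.1. A narrower interval of a gene can be higher per kb. At SIX2, chr2:45014033-45014515 had a vehicle mean of 8.07 CPM over 483 bp, against 4.53 over the 1340 bp of the interval taken.

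After sorbitol CTCF fell along PAX2 and WT1 and rose at SIX2, SALL1 and LHX1. When the counts of all intervals of a gene were summed, PAX2 fell by 1.45 on the log2 scale (SE 0.18, adjusted p = 5.6e-08). WT1 fell by 2.35 (SE 0.37). Both WT1 intervals with enough counts for a test passed the filter on low counts through the vehicle libraries alone. The WT1 sum is therefore given as a description, without the test. LHX1 rose by 1.19 (SE 0.24, adjusted p = 1.9e-04), SALL1 by 1.14 (SE 0.26, adjusted p = 5.6e-04) and SIX2 by 1.12 (SE 0.24, adjusted p = 2.8e-04). PAX8, with -0.30, GATA3, with 0.32, and EYA1, with 0.24, did not pass the threshold of adjusted p under 0.05. Over all 40370 genes tested, 22.6% were called higher and 22% lower, beside 3 and 2 of the 8 members, with WT1 among the 2.

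**Figure D2:**
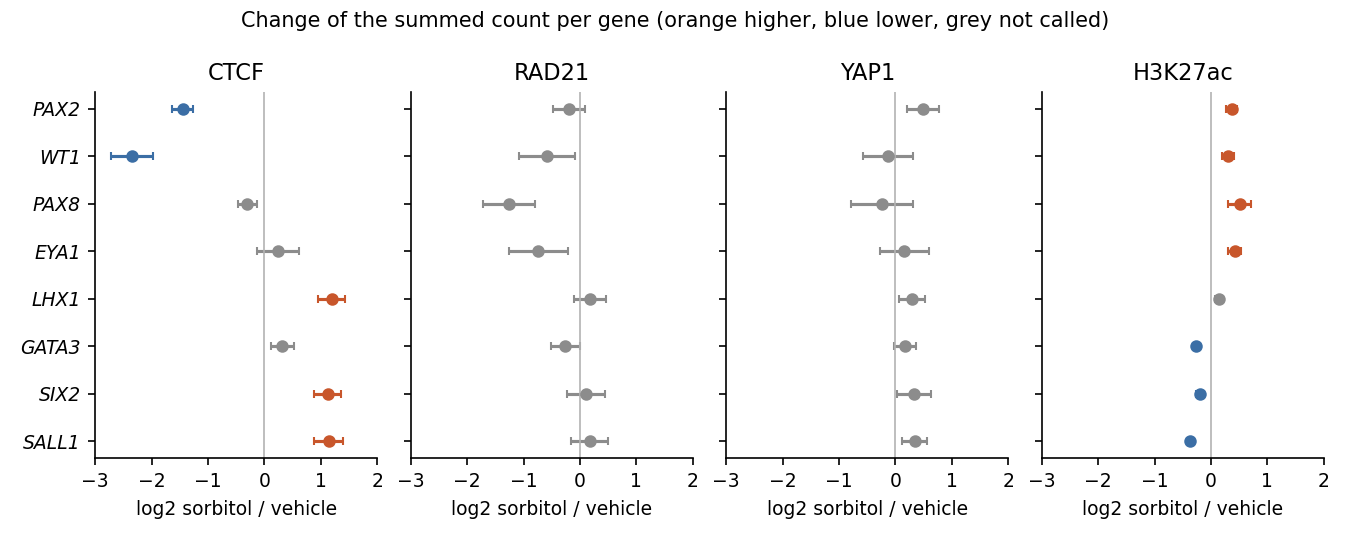
Log2 change (sorbitol over vehicle, TMM scale) of the counts summed per gene, in 1 panel for each target, with bars of 1 SE from the fit and colour for genes past adjusted p 0.05. CTCF spans -2.35 at WT1 to 1.19 at LHX1, H3K27ac stays between -0.37 and 0.51, and no member is called for RAD21 or YAP1.

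The 3 rises depended on the scaling, while the 2 falls were called in every alternative fit run on gene sums. The fall of WT1 carries the limit given above in each of these fits. DESeq2, GC-corrected offsets and the fit on all 16 libraries were not run on gene sums. With total counts as library sizes no member rose and 4 fell, while with scaling to the weakest 25% of intervals the calls were 3 higher and 2 lower as before. The summed CTCF counts of SIX2, as counted, were 111 and 55 in vehicle and 70 and 76 after sorbitol, those of SALL1 80 and 50 against 56 and 62, and those of LHX1 116 and 49 against 69 and 82. For WT1 they were 160 and 71 against 10 and 8, and for PAX2 436 and 267 against 55 and 50. Thus for the rising genes the raw counts of the groups overlapped, and for the falling genes they were far apart.

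By single interval, 22 of the 49 members had enough counts for the CTCF test, and 15 of them were called, 8 higher and 7 lower. Over all 39261 tested intervals 19.5% were higher and 20.7% lower. The median change was 0.34 over the tested members and -0.06 over all, but the members' median was -0.08 without vehicle library 2, 0.03 without sorbitol library 1, 0.14 without vehicle library 1, -0.64 with total counts and -0.96 with a mean of at least 50 counts, so its sign is not stable. The split moved with the scaling: 0 higher and 9 lower with total counts, 8 and 4 with the weakest 25% of intervals, and 4 and 6 with GC-corrected offsets. Without vehicle library 1 there were 6 calls, and without vehicle library 2 there were 7. Fits with either sorbitol library left out gave 11 and 12. The filter on low counts was passed through the vehicle libraries alone at 3 of the 7 falls (1 at PAX2 and both at WT1) and through the sorbitol libraries alone at 2 of the 8 rises (1 each at SIX2 and LHX1), and such intervals had to differ to be tested.

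PAX2 lost CTCF at each of its 4 tested intervals, which are the 4 with a consensus match. The upstream interval chr10:100728927-100729705, 16.3 kb before the canonical start, had 10.9 and 10.5 CPM in vehicle and 1.49 and 2.35 after sorbitol, a log2 change of -2.45 (SE 0.50), from 73 and 46 counts to 3 and 5. It passed the filter on low counts through the vehicle libraries alone, so its values are a description, without the test. The intron interval chr10:100743613-100744234, 1.7 kb upstream, fell from 23.7 and 23.0 CPM to 8.95 and 6.59 (log2 change -1.59, SE 0.30, adjusted p = 2.8e-04). At both, the sorbitol libraries lay far below the vehicle libraries. The call of the intron interval held in every alternative fit that tested it.

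The PAX2 promoter interval chr10:100744881-100746471, which spans untranslated and coding sequence, went from 17.4 and 17.7 CPM to 11.4 and 6.59 (log2 change -0.97, SE 0.32, adjusted p = 0.02). The downstream intron interval chr10:100817461-100817924 went from 11.8 and 8.41 CPM to 3.48 and 5.65 (log2 change -1.15, SE 0.43, adjusted p = 0.037). The groups did not overlap at either. The first lost its call without sorbitol library 2 or either vehicle library, with changes of -1.41 to -0.61 over the fits that leave 1 library out, and with DESeq2 (adjusted p = 0.058) and the weakest 25% of intervals (adjusted p = 0.053). The second lost it without sorbitol library 1 or either vehicle library, with changes of -1.55 to -0.85. It was also lost with DESeq2, GC-corrected offsets (-0.81, adjusted p = 0.16), the replicate block (adjusted p = 0.058), the weakest 25% and the fit on all 16 libraries.

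WT1 fell at both of its tested intervals. Both passed the filter on low counts through the vehicle libraries alone and had to differ to be tested. Their values are therefore given as a description, without the test. The promoter interval chr11:32434260-32435865 had 15.1 and 8.64 CPM in vehicle and 3.48 and 2.35 after sorbitol (101 and 38 counts against 7 and 5, log2 change -2.04, SE 0.48). It also covers the start of WT1-AS, and the counts cannot be assigned to one of the 2 genes. The 2 vehicle libraries there were themselves apart, and without vehicle library 1 the call was lost, at -1.58. The interval chr11:32374133-32374649, 61.1 kb from the canonical start and outside the gene, held 28 and 21 counts in vehicle and 1 and 2 after sorbitol. Its ratio of vehicle to sorbitol counts, scaled for library size, was 6.08, with an exact 95% interval from 1.96 to 30.5 for counting error only, and the fitted change was -2.56 (SE 0.80). That call was lost without sorbitol library 1 or either vehicle library, with changes of -3.09 to -2.20, and with the replicate block and GC-corrected offsets together (-2.18).

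The interval in PSD4 near PAX8, the strongest CTCF interval per kb among the members, went from 29.8 and 30.2 CPM to 14.9 and 24.5. Its log2 change was -0.60 (SE 0.24, adjusted p = 0.049). The groups did not overlap, but the 2 sorbitol libraries were far apart. The call was lost without sorbitol library 1 or either vehicle library, with changes of -1 to -0.29, and with DESeq2, GC-corrected offsets (-0.36), the weakest 25% of intervals and the fit on all 16 libraries.

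The SIX2 intervals rose. The one across its start, chr2:45009164-45010503, had 6.11 and 2.95 CTCF CPM in vehicle and 14.9 and 17.4 after sorbitol (log2 change 1.77, SE 0.38, adjusted p = 9.7e-04). The one over its coding sequence, chr2:45007650-45009036, had 1.79 and 2.05 against 6.96 and 6.59 (log2 change 1.82, SE 0.56). This second interval passed the filter on low counts through the sorbitol libraries alone, so its values are a description, without the test. In both intervals the groups were clearly apart on this scale. The second lost its call without either vehicle library, with changes of 1.69 to 1.89. With GC-corrected offsets both kept their calls, the first at a smaller change of 1.00, and with those offsets and the replicate block together neither did (1.06 and 1.51). Another SIX2 interval, 4.8 kb upstream, had 8.65 and 7.5 against 12.9 and 11.8 CPM and did not pass (log2 change 0.60, adjusted p = 0.17).

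SALL1 rose at both tested intervals. At chr16:51151437-51151927, in an intron 0.4 kb upstream of the canonical start, CTCF went from 3.58 and 3.18 CPM to 12.4 and 10.8 (log2 change 1.76, SE 0.42, adjusted p = 0.0023). At chr16:51152191-51152936 it went from 5.37 and 5.91 to 12.4 and 16.5 (log2 change 1.36, SE 0.36, adjusted p = 0.0047). The vehicle libraries were close together and lay below both sorbitol libraries. Without vehicle library 1 the second interval lost its call, with changes of 1.15 to 1.56 over the fits that leave 1 library out. Both calls were lost with GC-corrected offsets, at 0.78 (adjusted p = 0.16) and 0.40 (adjusted p = 0.41), and with total counts, at 0.78 and 0.38.

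**Figure D3:**
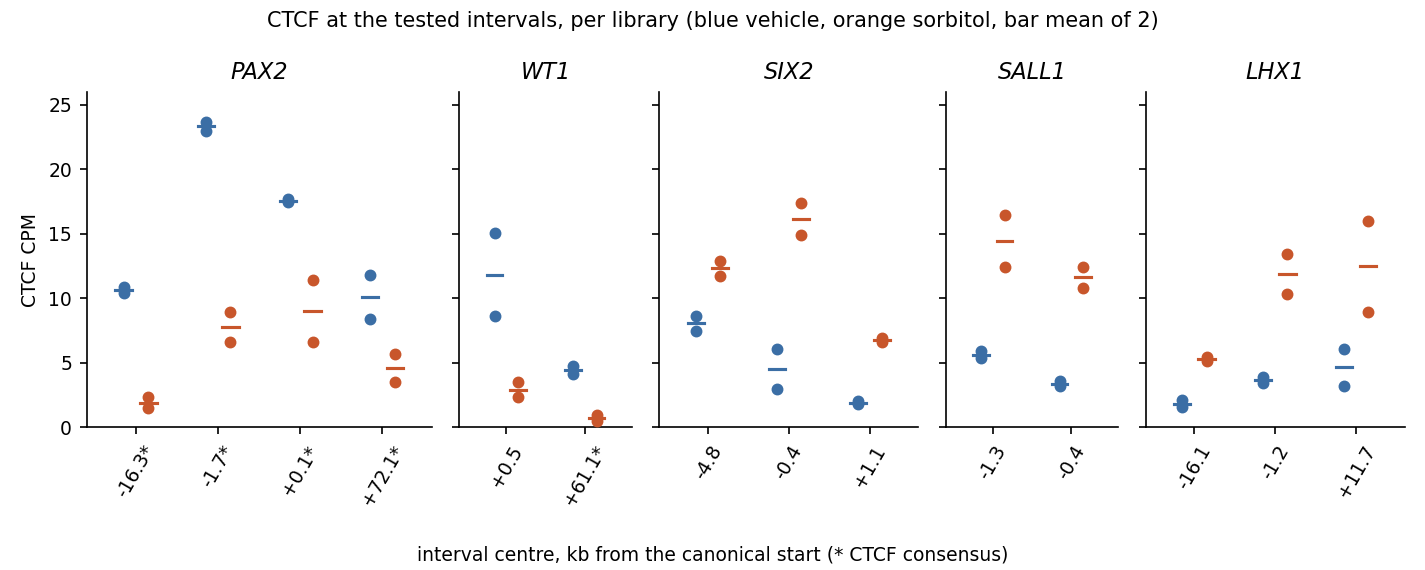
CTCF CPM (TMM scale) at the tested intervals of 5 genes, 1 point per library and a bar at the mean of 2 libraries, placed by the distance of the interval centre from the canonical start; an asterisk marks a consensus match. The sorbitol points lie below the vehicle points at all 6 intervals of PAX2 and WT1 and above them at all 8 of SIX2, SALL1 and LHX1 on this scale. Of the 6, 3 passed the filter on low counts through the vehicle libraries alone. Of the 8, 2 passed it through the sorbitol libraries alone, and all such intervals had to differ to be shown. The share of all tested intervals without overlap was not computed.

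LHX1 rose at 3 intervals, of which 1 lies at the start of its neighbour. The interval at its own start, chr17:36935568-36936911, had 3.88 and 3.41 CPM in vehicle and 13.4 and 10.4 after sorbitol (log2 change 1.68, SE 0.42, adjusted p = 0.0029). An interval 16.1 kb upstream, chr17:36920817-36921916, rose by 1.49 (SE 0.59), and one at the start of AATF, chr17:36948512-36949752, by 1.38 (SE 0.42, adjusted p = 0.012). The upstream interval passed the filter on low counts through the sorbitol libraries alone, so its values are a description, without the test. Groups did not overlap at any of the 3. The upstream interval lost its call with any 1 of the 4 libraries left out (1.33 to 1.70), and that of AATF without sorbitol library 2 or vehicle library 2 (0.90 to 1.94). With GC-corrected offsets these 2 calls were lost too (1.45 and 0.94), while the one at the LHX1 start was kept at 1.11 (adjusted p = 0.044). The upstream call was also lost with DESeq2, with the replicate block and with no count filter.

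GATA3 had 1 rise among 3 tested intervals. The intron interval chr10:8049572-8050197, 4.8 kb upstream, went from 2.68 and 2.27 CPM to 7.95 and 5.65 (log2 change 1.43, SE 0.54, adjusted p = 0.039), and lost the call without sorbitol library 1 or either vehicle library (1.17 to 1.66). It kept the call in 4 of 14 alternative fits, and lost it also with DESeq2, the replicate block (adjusted p = 0.072), no count filter, GC-corrected offsets (0.71) and total counts (0.45). The interval chr10:8054425-8054845 had 2.98 and 5.91 CPM against 8.95 and 7.06, with groups that did not overlap, and did not pass (log2 change 0.89, adjusted p = 0.14). The strongest GATA3 interval, 1.1 kb upstream, had 12.5 and 12.3 against 8.45 and 10.4 (log2 change -0.40, adjusted p = 0.35). EYA1 had 2 tested intervals, with changes of -0.26 and -0.09, and PAX8 had 2 others, with 0.11 and 0.57, and none of the 4 passed.

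Promoter and other intervals differed in the direction of the CTCF calls. Among the members, 10 promoter intervals were tested, of which 5 were higher and 2 lower (median change 1.13), and 12 other intervals, of which 3 were higher and 5 lower (median 0.01). Over the whole table the tested protein-coding promoter intervals numbered 14723, of which 4480 were higher and 1291 lower (median 0.48), and of the 24538 other intervals 3167 were higher and 6830 lower (median -0.48). The promoters of PAX2 and WT1 were the 2 member promoters among the falls. The WT1 promoter interval, and the promoter rise over the SIX2 coding sequence, passed the filter on low counts through 1 group alone. All 5 member intervals with a consensus match were lower, with a median of -1.59, while in the table as a whole 3282 of 12217 such intervals were lower and 1415 higher (median -0.38). With 4 of those 5 at PAX2, they share a locus and are not independent. Of the 5, the upstream PAX2 interval and the WT1 interval passed the filter through the vehicle libraries alone.

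RAD21 showed no call at the members. Of the 49 intervals 14 could be tested and 0 passed with edgeR or with DESeq2, beside 4.79% of the 17011 intervals tested in the table, and 3 of the 14 had an unadjusted p under 0.05. The lowest was the PSD4 interval near PAX8, where CTCF fell too: it had 10.5 and 12.4 RAD21 CPM in vehicle and 1.72 and 3.97 after sorbitol, from 33 and 16 counts to 2 and 4 (log2 change -1.99, SE 0.67). The other 2 were at GATA3, with changes of -1.75 at chr10:8046320-8046868 and -1.16 at chr10:8053313-8053857 (adjusted p = 0.20 for the latter). The sorbitol libraries lay below the vehicle libraries at all 3. The PSD4 interval and chr10:8046320-8046868 passed the filter on low counts through the vehicle libraries alone. They had to be lower after sorbitol to be tested, so their values are a description, without the test. The PAX2 promoter had 12.1 and 15.5 against 11.2 and 25.8 CPM (log2 change 0.43, adjusted p = 0.63), with overlapping groups.

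Summed per gene, RAD21 changed by -1.26 (SE 0.46, adjusted p = 0.11) at PAX8 and by -0.74 to 0.18 at the other 7, and 0 of 8 passed, beside 6.57% of 31609 genes. One of the 8, PAX8, had an unadjusted p under 0.05. The difference between the RAD21 and the CTCF change was also tested directly. It passed at 0 of 28 member intervals, beside 0.83% of 42641 in the table, with 9 of the 28 at an unadjusted p under 0.05, and DESeq2 was not run for this test. At the EYA1 promoter, which had too few counts for the RAD21 test, the counts were 16 and 7 in vehicle and 0 in both sorbitol libraries.

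YAP1 showed no call on the TMM scale either. Of the 49 intervals 18 were tested and 0 passed with edgeR or DESeq2, with 0 at an unadjusted p under 0.05, beside 6.83% of 22765 intervals called. Changes ran from -1.19 to 1.17. The strongest YAP1 intervals were at SALL1, where chr16:51152191-51152936 had 13.2 and 10.1 CPM in vehicle and 19.2 and 16.8 after sorbitol (log2 change 0.63, SE 0.31, adjusted p = 0.26), and at the AATF start beside LHX1, with 14.5 and 9.56 against 9.05 and 20.02 (log2 change 0.20, adjusted p = 0.82). The groups did not overlap at the first and overlapped at the second.

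Per gene, YAP1 changed by -0.23 (PAX8) to 0.49 (PAX2), and 0 of 8 passed with edgeR, 0 at an unadjusted p under 0.05, beside 7.43% of 34108 genes. With total counts as library sizes 10 of the 18 intervals and 8 of the 8 genes were called lower, on a scale where the median of all intervals was -1.46. The absence of calls at the members thus holds relative to other intervals, and not for the share of all counts. GGAATG was present in 12 of the 49 member intervals, and in 23.1% of all intervals.

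H3K27ac changes per gene were small, and at PAX2, WT1, SIX2 and SALL1 their sign was opposite to that of CTCF. Summed per gene, EYA1 rose by 0.42 (SE 0.11, adjusted p = 6.5e-04), PAX2 by 0.37 (SE 0.10, adjusted p = 8.4e-04), PAX8 by 0.51 (SE 0.20, adjusted p = 0.025) and WT1 by 0.30 (SE 0.11, adjusted p = 0.018). The PAX8 sum was 84 and 76 counts in vehicle and 168 and 131 after sorbitol. Of these, 31 and 28 against 61 and 51 came from the PSD4 interval. Another interval outside the gene gave 25 and 22 against 34 and 39. The PAX8 promoter interval, with 5 and 0 against 20 and 13, passed the filter on low counts through the sorbitol libraries alone. The PAX8 rise is thus not that of the gene alone. SALL1 fell by 0.37 (SE 0.06, adjusted p = 1.6e-07), GATA3 by 0.26 (SE 0.06, adjusted p = 9.4e-05) and SIX2 by 0.20 (SE 0.07, adjusted p = 0.021). LHX1, at 0.15, had an adjusted p of 0.063. Of all 41391 genes tested, 21.8% were called higher and 26.4% lower.

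In CPM, PAX2 had 52.7 and 49.6 in vehicle and 64.7 and 59.0 after sorbitol, and EYA1 38.7 and 43.6 against 49.4 and 53.8. SALL1 had 173 and 168 against 134 and 113, and GATA3 198 and 181 against 157 and 140. Groups did not overlap in the 7 called genes, and overlapped for LHX1. A call makes such separation likely, and the share of all tested genes without overlap was not computed. The split was 5 higher and 2 lower with total counts and 2 higher and 3 lower with the weakest 25% of intervals. The calls of PAX8 and WT1 were lost with the latter and that of SIX2 with the former. DESeq2 and GC-corrected offsets were not run on the gene sums. Without sorbitol library 1 the calls of PAX8 (0.42 to 0.58 over the fits that leave 1 library out), SIX2 (-0.24 to -0.16) and WT1 (0.25 to 0.35) were lost. PAX8 also lost its call without vehicle library 2, and SIX2 and WT1 without vehicle library 1.

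By interval, 41 of the 49 members were tested for H3K27ac, and 6 were higher and 9 lower, beside 8.59% higher and 14.5% lower over the 56601 tested in the table. The split was 10 and 5 with total counts, 3 and 13 with the weakest 25%, and 7 and 2 with GC-corrected offsets. With sorbitol library 1 or 2 left out there were 9 calls in each case, and without vehicle library 1 or 2 there were 11 and 10. DESeq2 called 9 of the 33 for which it gave an adjusted p, and a single fit on all 16 libraries called 0. Of the 6 rises, 3 passed the filter on low counts through the sorbitol libraries alone.

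Those 3 were weak intervals inside EYA1 and PAX8. Since an interval this low in vehicle had to be higher after sorbitol to be tested at all, their values are given as a description, without the test. At an EYA1 intron interval 97.3 kb downstream of the canonical start, chr8:71264639-71264838, the counts were 2 and 1 in vehicle and 15 and 12 after sorbitol. The ratio scaled for library size was 6.41, with an exact 95% counting interval from 1.97 to 33.0, and the fitted change was 2.60 (SE 0.81). Another EYA1 intron interval, chr8:71259210-71259456, had 0.478 and 0.646 CPM against 2.03 and 1.84 (log2 change 1.76, SE 0.64). The PAX8 promoter interval named above went from 5 and 0 counts to 20 and 13 (0.796 and 0 CPM against 2.13 and 1.60, log2 change 2.18, SE 0.75). In each the sorbitol libraries were above both vehicle libraries, and levels stayed low in both groups.

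Those calls rest on few counts. The 2 EYA1 calls were lost with any 1 of the 4 libraries left out (changes of 2.21 to 3.12 and of 1.55 to 1.98), and that of PAX8 without either sorbitol library or without vehicle library 2 (1.21 to 6.90). The second EYA1 call was also lost with no count filter (adjusted p = 0.058). DESeq2 gave no adjusted p for any of the 3, and its changes were 2.68, 1.78 and 2.22.

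At higher levels, the EYA1 promoter interval chr8:71361612-71362271 went from 9.24 and 9.21 CPM to 19.1 and 13.9 (log2 change 0.84, SE 0.21, adjusted p = 0.0028). This and the PAX8 interval, which passed the filter through the sorbitol libraries alone, were the 2 promoter intervals called higher. The EYA1 call was lost only without sorbitol library 1 (0.60) and in the fit on all 16 libraries. Upstream of it, 44.7 kb away, the EYA1 interval chr8:71406410-71407120 fell from 10.2 and 12.8 CPM to 5.87 and 8.72 (log2 change -0.66, SE 0.25, adjusted p = 0.047). That call was lost without sorbitol library 1 or vehicle library 2 (-0.96 to -0.39), and with DESeq2, GC-corrected offsets and total counts. In EYA1, then, both directions occurred within 1 gene.

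**Figure D4:**
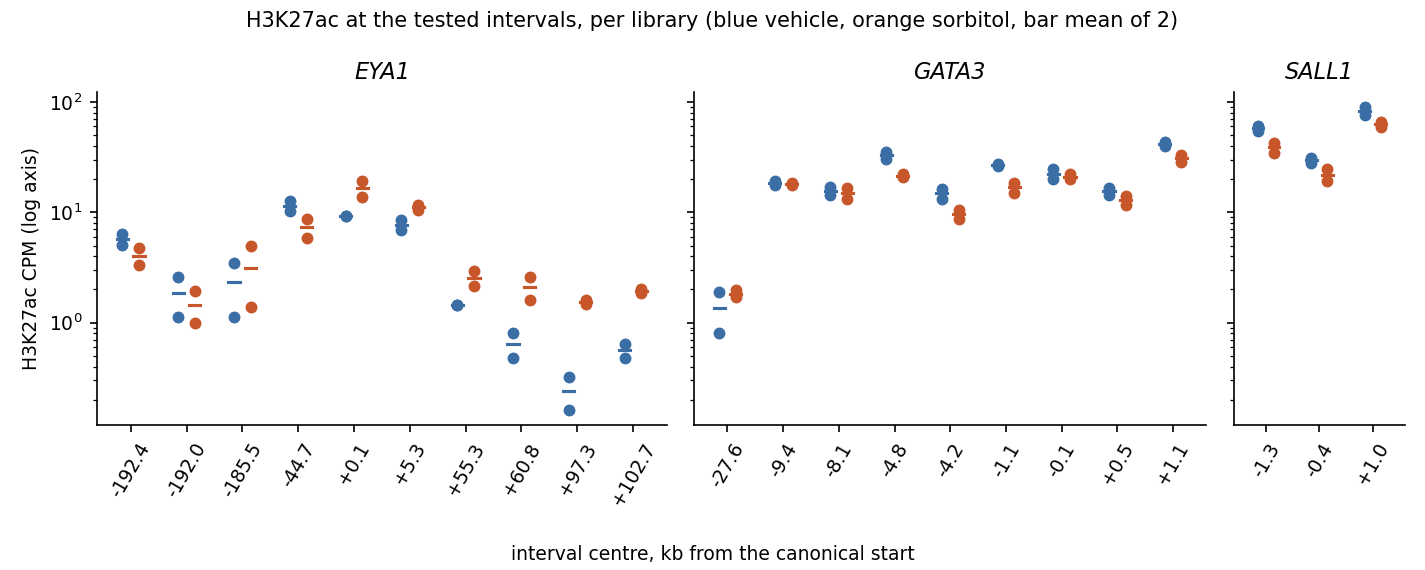
H3K27ac CPM (log axis, TMM scale) at the tested intervals of EYA1, GATA3 and SALL1, 1 point per library and a bar at the mean of 2 libraries, placed by the distance of the interval centre from the canonical start. The sorbitol points lie above the vehicle points at 6 EYA1 intervals from the promoter downstream and below them at the 3 SALL1 intervals. Of these EYA1 intervals, those from 55.3 to 102.7 kb downstream passed the filter on low counts through the sorbitol libraries alone. They had to be higher after sorbitol to be tested and shown.

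PAX2 gained H3K27ac at an intron interval 45.3 kb downstream, chr10:100790615-100791217, with 4.14 and 2.59 CPM in vehicle and 7.47 and 7.61 after sorbitol (log2 change 1.16, SE 0.32, adjusted p = 0.0065). The call was lost without vehicle library 2, with changes of 0.85 to 1.53. The PAX2 promoter had 36.8 and 34.6 against 42.2 and 39.2 CPM and did not pass (log2 change 0.19, adjusted p = 0.24). The WT1 promoter had 38.2 and 41.1 against 47.4 and 43.6 and did not pass either (log2 change 0.20, adjusted p = 0.18). Neither group pair overlapped. The LHX1 interval 16.1 kb upstream, where CTCF rose, also rose in H3K27ac, from 13.9 and 16.5 CPM to 23.9 and 21.98 (log2 change 0.60, SE 0.17, adjusted p = 0.0076), and lost that call without sorbitol library 1 or vehicle library 1 (0.47 to 0.72) and with the weakest 25% of intervals (0.36).

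SALL1 fell at all 3 of its intervals. The promoter interval with the most H3K27ac, chr16:51149656-51150982, went from 89.8 and 76.4 CPM to 66.3 and 59.0 (log2 change -0.41, SE 0.09, adjusted p = 8.4e-04). The one at chr16:51152191-51152936 went from 54.6 and 60.8 to 42.7 and 34.8 (log2 change -0.57, SE 0.11, adjusted p = 1.1e-04). The third, between them, fell by 0.44 (SE 0.15, adjusted p = 0.03), and lost its call without sorbitol library 2 or vehicle library 2 (-0.63 to -0.27). With GC-corrected offsets all 3 calls were lost, at -0.21 (adjusted p = 0.09), -0.26 (adjusted p = 0.077) and -0.13 (adjusted p = 0.59) in the order given. At SALL1 the sorbitol libraries were below the vehicle libraries throughout.

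GATA3 fell at 4 of 9 tested intervals. The largest fall, at chr10:8053313-8053857, was from 26.3 and 27.2 CPM to 18.6 and 15.1 (log2 change -0.66, SE 0.16, adjusted p = 0.0018). The intron interval where CTCF rose, chr10:8049572-8050197, went from 35.0 and 30.5 CPM to 20.7 and 22.1 (log2 change -0.62, SE 0.14, adjusted p = 0.001). Its neighbour chr10:8050329-8050582 fell by 0.62 (SE 0.21, adjusted p = 0.031) and the promoter interval chr10:8055498-8056118 by 0.43 (SE 0.12, adjusted p = 0.0073). The first of these 2 lost its call without sorbitol library 2 or vehicle library 1 (-0.77 to -0.46), and the second without sorbitol library 2 or vehicle library 2 (-0.54 to -0.32). With GC-corrected offsets 3 of the 4 calls were lost, at -0.40 (adjusted p = 0.067) for the largest fall, -0.39 (adjusted p = 0.19) for the neighbour and -0.18 (adjusted p = 0.29) for the promoter interval, and the intron interval where CTCF rose kept its call at -0.39 (adjusted p = 0.043). The interval on the canonical start, between them, had 24.5 and 19.9 against 22.1 and 19.9 CPM, with overlapping groups (log2 change -0.08, adjusted p = 0.76).

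SIX2 fell over its coding sequence, from 51.8 and 52.0 CPM to 37.1 and 40.3 (log2 change -0.42, SE 0.11, adjusted p = 0.0025). Across its start it had 57.2 and 52.0 against 43.4 and 48.3 (log2 change -0.25, adjusted p = 0.067), with groups that did not overlap. LHX1 at its start had 35.4 and 38.5 against 31.5 and 37.8 (log2 change -0.10, adjusted p = 0.61), with overlapping groups. By class, 19 member promoter intervals gave 2 higher and 6 lower (median -0.10), and 22 other member intervals gave 4 higher and 3 lower (median 0.27). These rises include the 3 that passed the filter through the sorbitol libraries alone. In the whole series 2084 of 19457 protein-coding promoter intervals were higher and 5471 lower (median -0.13), and of the other 37144 intervals 2779 were higher and 2735 lower (median 0.14).

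The H3K27ac and CTCF changes parted at 13 of 41 member intervals by a direct test over the 8 libraries of both targets. The H3K27ac change was the more positive at 6, beside 12.3% of the 66550 tested in the table, and the more negative at 7, beside 9.27%. The 6 were 3 at PAX2, 2 at WT1 and the PSD4 interval near PAX8. Of the 2 at WT1, chr11:32374133-32374649 passed the filter on low counts through the CTCF vehicle libraries alone. It had to differ to be tested, so its difference is a description, without the test. The 7 were 2 each at SIX2, SALL1 and LHX1 and 1 at GATA3. At the WT1 promoter the difference was 2.65 (SE 0.44, adjusted p = 1.5e-06), and at the SIX2 start it was -1.63 (SE 0.34, adjusted p = 1.4e-04). With total counts the split was 9 and 2, and with the weakest 25% of intervals 2 and 12.

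**Figure D5:**
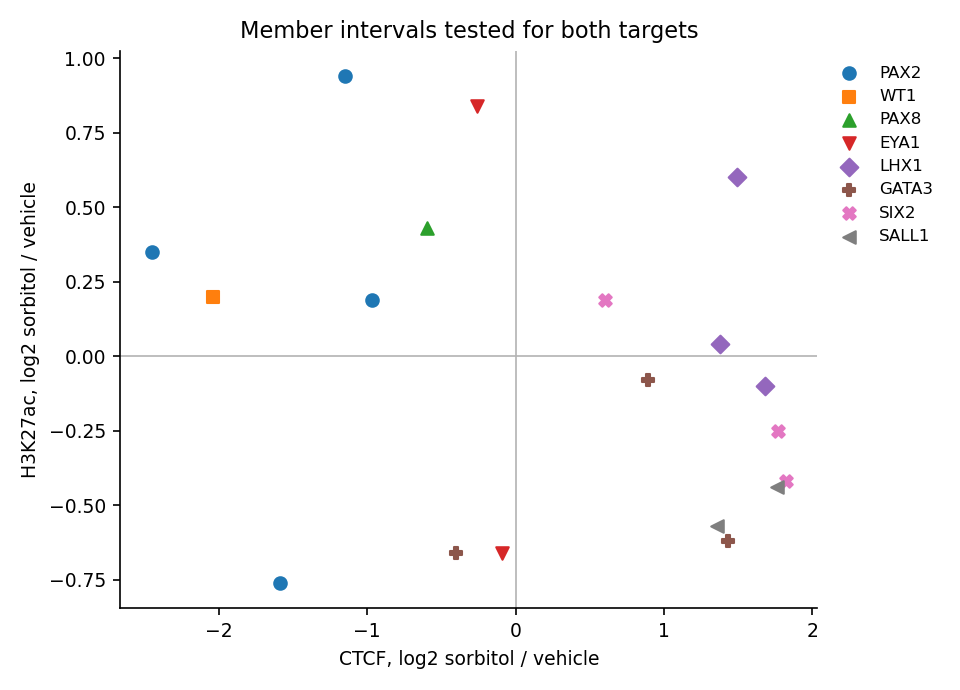
Log2 change of CTCF (horizontal) and of H3K27ac (vertical) at the 19 member intervals tested for both targets, marked by gene. PAX2 and WT1 lie on the left and SIX2, SALL1 and LHX1 on the right, and Pearson's r over the 19 points is -0.308.

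Over those 19 intervals Pearson's r between the 2 changes was -0.308, and over the 30189 intervals of the table tested for both it was -0.112. Over the 8 gene sums r was -0.587 and Spearman's rho was -0.619. These are descriptions across loci and not tests: intervals of 1 gene are neighbours, all points share the same libraries, and GC content differs between them. At and near the starts the combinations differed from gene to gene. PAX2 and WT1 lost CTCF while their promoter H3K27ac did not pass the test. SIX2 and SALL1 gained CTCF on this scale while H3K27ac fell in at least 1 of their intervals, and the LHX1 start gained CTCF while its H3K27ac did not pass. The EYA1 promoter gained H3K27ac while its CTCF did not pass, and the GATA3 promoter interval lost H3K27ac with too few CTCF counts for a test.

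The other kidney genes were described by the same gene sums. Of 35 other transcription factors of kidney development, 30 were tested for CTCF, with 7 higher and 3 lower (median 0.20), and 31 for H3K27ac, with 12 higher and 11 lower (median 0.09). The largest CTCF rise was at SOX8 (2.22), a SOX-family factor, and the largest falls among the called genes were at TFAP2A (-0.58) and HOXD11 (-0.45). For H3K27ac the largest rise was at ETV4 (1.68), an effector of RET signalling, from low vehicle counts of 21 and 32, and the largest falls were at SOX8 (-0.79) and IRX3 (-0.71).

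Of 28 signalling genes, 25 were tested for CTCF, with 5 higher and 5 lower (median -0.13), and 27 for H3K27ac, with 10 higher and 4 lower (median 0.07). SLIT2 (1.35), a guidance ligand, and DCHS1 (1.34), a protocadherin, rose most in CTCF, and ITGA8 (-1.21), an integrin subunit of the mesenchyme, and ROBO2 (-1.06), a SLIT receptor, fell most. For RAD21, FGFR2 (-1.04, adjusted p = 0.039) and ITGA8 (-1.75, adjusted p = 0.005) were 2 lower of 23, and for YAP1 SLIT2 was 1 of 24. ACTB, GAPDH and EEF1A1 were all 3 lower in H3K27ac, with a median of -0.68. The members thus moved both ways, as did both other kidney lists, and nothing particular to the members was tested.

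The genes whose profile over the 16 libraries was most like that of a member were named by Pearson's r of summed, centred log2 CPM among 10698 protein-coding genes with at least 100 counts in every target. They were NOMO2 (0.95) and MACF1 (0.937) for PAX2, DUS1L (0.925) and MRPL36 (0.919) for SIX2, JDP2 (0.975) and LEFTY1 (0.964) for SALL1, TMEM217B (0.939) for LHX1, and CREBBP (0.936) and ARHGAP17 (0.931) for GATA3. PAX8, WT1 and EYA1 were below that count in at least 1 target. The 16 points share libraries and fall into 4 targets, so these values are a description.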

How the data were processed

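CUT&Tag was measured in 16 HEK293 libraries. The deposited table holds raw counts per interval, which the authors did not scale between libraries. Per the submitters' processing notes, the tools were Trim Galore, FastQC, BWA 0.7.17, SAMtools, Picard, bedtools 2.31.1 and MACS2 2.2.6, with build hg38. Pooling before peak calling is not given in the sources used here. A library's group came from its title, and its column was matched by target, treatment and replicate. Coordinates are printed 1-based, the starts in the table having been taken as 0-based. Distances run from the interval's centre to the canonical start of the gene in GENCODE release 44.

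Each target was fitted on its 4 libraries with edgeR 4.0.16 in R 4.3.3 (quasi-likelihood test, TMM, filterByExpr at 10 counts, two-sided), with Benjamini-Hochberg adjustment over all tested intervals, or over all genes for counts summed per gene. Intervals can be summed into more than 1 gene. A call has adjusted p under 0.05. SE comes from the F statistic. Differences between targets are the interaction over 8 libraries. The step was tested on simulated counts. Untested members, too low in counts, numbered 27 (CTCF), 35 (RAD21), 31 (YAP1) and 8 (H3K27ac); members that pass only through the higher group had to differ.

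The alternatives were DESeq2 1.42.0 with a local dispersion trend, its size factors in edgeR, scaling to totals or to the weakest 25% of intervals, other count filters, GC-corrected offsets, 1 fit on all libraries, the replicate block, intervals within 5 kb of a start, leaving out intervals above 0.1% of a library together with mitochondrial, contig and YAP1 gene intervals, and each library left out in turn. The local trend was chosen after seeing the data: for H3K27ac the convergence of the default trend varied with the number of computing threads, which moved the count of calls. With 1 library left in a group, it is assumed to vary like those of the other group. DESeq2, GC-corrected offsets and the fit on all libraries were run by interval only. The members, lists and tests were chosen with earlier results of these data known. The rule named all 8 genes and, among their intervals, each gene's promoter interval with the most H3K27ac, its strongest CTCF interval, and for each target the 3 largest calls in each direction. The other intervals named were chosen after their values were seen, so that every call at the members is given. The values of some single genes of the list of other kidney factors are not reported here. A control with a non-specific antibody was not used here. Counts of PCR copies are not independent molecules, so counting intervals cover counting error only.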

Additional observations from a re-analysis of the deposited data

Results flagged for a closer look

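At 13 member intervals the H3K27ac response to sorbitol differed from the CTCF response in a direct test of the difference (interaction of target and treatment over 8 libraries, edgeR, adjusted p under 0.05). Values are the log2 change of H3K27ac minus that of CTCF. H3K27ac changed in the more positive direction at PAX2 by 3.17 (chr10:100728927-100729705), 1.53 (promoter interval, chr10:100744881-100746471) and 2.46 (chr10:100817461-100817924), at WT1 by 3.11 (chr11:32374133-32374649, too low in H3K27ac counts for a test of that target alone) and 2.65 (promoter interval), and by 1.40 at the PSD4 interval near PAX8. It changed in the more negative direction at SIX2, with -1.89 (chr2:45007650-45009036) and -1.63 (chr2:45009164-45010503), at SALL1, with -1.83 (chr16:51151437-51151927) and -1.58 (chr16:51152191-51152936), at LHX1, with -1.41 at its start and -0.95 at the start of AATF, and at GATA3, with -1.67 (chr10:8049572-8050197). The WT1 interval chr11:32374133-32374649 passed the filter on low counts through the CTCF vehicle libraries alone, with 28 and 21 counts. It had to differ to be tested, so its difference is a description, without the test. Groups of 2 libraries are too small for a check of single libraries that stand apart.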

How the results depend on the processing

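Counts of called member intervals moved by over 1.5 times as follows. For CTCF, 15 calls became 3 with a mean of at least 50 counts (4 intervals left), 6 with the replicate block and GC-corrected offsets, 9 with total counts and 9 with intervals within 5 kb of a start, and 6 to 12 with 1 library left out. For RAD21, 0 became 2 in the fit on all 16 libraries, 1 with total counts, and 0 to 1 with 1 library left out. For YAP1, 0 became 10 with total counts. For H3K27ac, 15 became 0 in the fit on all 16 libraries, 9 with DESeq2, 9 with GC-corrected offsets, 9 with the replicate block and these offsets, and 9 to 11 with 1 library left out. By gene, total counts gave 1 call for RAD21 and 8 for YAP1, where there had been 0, and turned CTCF over GATA3 to -0.51. The causes were not tested.

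Of the 15 CTCF interval calls, 144 of 213 refits kept the call, 69 lost it and 0 reversed, and of the 15 for H3K27ac, 149 of 215 kept it and 66 lost it, with 0 reversed, leaving out 3 for which DESeq2 gave no adjusted p. Of the gene calls, 52 of 55 refits kept those of CTCF and 68 of 77 those of H3K27ac. The gene refits did not include DESeq2, GC-corrected offsets or the fit on all 16 libraries. The shares kept by interval and by gene are therefore not alike. A mean of at least 50 counts left no member interval for RAD21 or YAP1.

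Same-numbered libraries' deviations correlated by -0.0094 (CTCF), -0.0049 (RAD21), 0.0096 (YAP1) and -0.0054 (H3K27ac). With few counts in many intervals, such values cannot show whether or not the replicate numbers pair the libraries. With the replicate block alone the interval calls were 12 (CTCF), 0 (RAD21), 0 (YAP1) and 14 (H3K27ac), the gene calls were 5, 0, 0 and 7, and 12 of the H3K27ac and CTCF differences passed. The RAD21 libraries hold 1187939 to 2295019 counts, and 14 of the 49 member intervals had enough RAD21 counts for a test.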
